A study of Mus musculus with 10 samples.

Results

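Mitochondrial oxidative phosphorylation (OXPHOS) genes encoded in the nucleus were examined in cells isolated as microglia from the cortex of the APP/PS1 mouse model of Alzheimer's disease. The genes were chosen by symbol, taking every Nduf, Sdh, Uqcr, Cox4 to Cox8 and Atp5 gene of the count files that names a complex I, II, III, IV or V component and leaving out pseudogene and Gm symbols. This gave 85 of 24421 symbols, with 38 genes for complex I, 4 for complex II, 8 for complex III, 18 for complex IV and 17 for complex V. By symbol, Ndufa4 and Ndufa4l2 stand under complex I although Ndufa4 is found with complex IV, and Atp5s and Atp5sl stand under complex V without being ATP synthase subunits. In all, 81 of the 85 passed the filter on low counts and were tested. The 4 that did not, Cox7a1, Cox7b2, Cox8b and Cox8c, had 0 to 13 reads per library.

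The study sequenced rRNA-depleted RNA from cells that were separated from papain-dissociated cortex on an OptiPrep density gradient. WT mice gave 3 libraries, APP/PS1 mice 4, and APP/PS1 mice injected with N-acetyl sphingosine (N-AS) 3, with 2 mice pooled per library and all mice 9 months old. APP/PS1 mice carry transgenes for mutant human APP and mutant presenilin 1, and the comparisons ask how microglia differ in this model and after N-AS, a sphingosine carrying an acetyl group. N-AS was given subcutaneously each day at 30 mg/kg for 8 weeks from 7 months of age, and both transgenes are shared by the N-AS and the APP/PS1 groups. The study's text describes its APP/PS1 controls as given vehicle, which the labels do not mention, and states that male mice were used.

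The respiratory chain oxidises NADH at complex I and succinate at complex II, passes electrons through complex III to oxygen at complex IV, and builds the proton gradient that complex V, the ATP synthase, uses to make ATP. Nearly all of its subunits are nuclear genes, while a few core subunits come from mitochondrial DNA, whose genes were not analysed here. Several subunits of complex IV have a second gene that is used in muscle, testis, lung or vessel cells, so that the ratio of both genes marks a tissue. Resting microglia rely largely on oxidative phosphorylation, and activated microglia are known to shift toward glycolysis. The Cox symbols in this text are subunits of cytochrome c oxidase and not cyclooxygenases.

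The libraries held 8805804 to 19432075 counts. All 14 microglial markers, such as Aif1 and P2ry12, were present, but their summed level was 826 to 1214 CPM (counts scaled to library size) for WT, 2590 to 3389 for APP/PS1 and 1628 to 2123 for N-AS libraries, beside neuronal markers at 3084 to 6181 and oligodendrocyte markers at 1980 to 7156. The cells were therefore mixed, and fewer cells of a type and less RNA per cell cannot be told apart in such bulk samples. Xist, a transcript of the inactive X chromosome, had 33 to 37 reads in WT and 5253 to 11188 in APP/PS1. Its reads after N-AS were 7024, 8848 and 29 in replicates 1 to 3. These values go against libraries of males only. Ddx3y, a gene of the Y chromosome, had 590 to 1431 reads in WT. Its reads were 203, 324, 7 and 10 in APP/PS1 replicates 1 to 4, and 207, 359 and 993 after N-AS. Low and high Xist thus followed genotype between WT and APP/PS1, so sex and genotype cannot be told apart in that comparison. Neither transgenic group was uniform. In the N-AS group replicate 3 alone had low Xist, and in the APP/PS1 group Ddx3y was far lower in replicates 3 and 4 than in 1 and 2. The labels also number the libraries from 1 to 10, where 1 to 6 are the first 2 replicates of every group, and values are given for 1 to 6 and for 7 to 10 separately where they depend on the set.

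Levels differed widely among the subunits. Per kilobase of transcript, the median over 10 libraries was highest for Atp5h, a stalk subunit of the ATP synthase, at 137 CPM per kb, followed by Atp5b, its catalytic beta subunit, at 112 and Cox6c of complex IV at 111. Within complex I the range ran from 3.26 CPM per kb for Ndufb2 to 55.7 for Ndufs7, a core subunit of the electron path. In complex II Sdha, the flavoprotein that oxidises succinate, had 44.2 CPM per kb and Sdhc, a membrane anchor, 6.14. In complex III Uqcrb had 78.6 and Uqcrfs1, the Rieske iron-sulfur protein, 10.2. The lowest values of complexes IV and V were 0 for Cox8c and 2.48 for Atp5s. These levels rest on the median length of the principal transcripts in GENCODE M21 and are uncertain for genes with transcripts of very different length, such as Atp5g1 and Ndufb2.

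**Figure D1:**
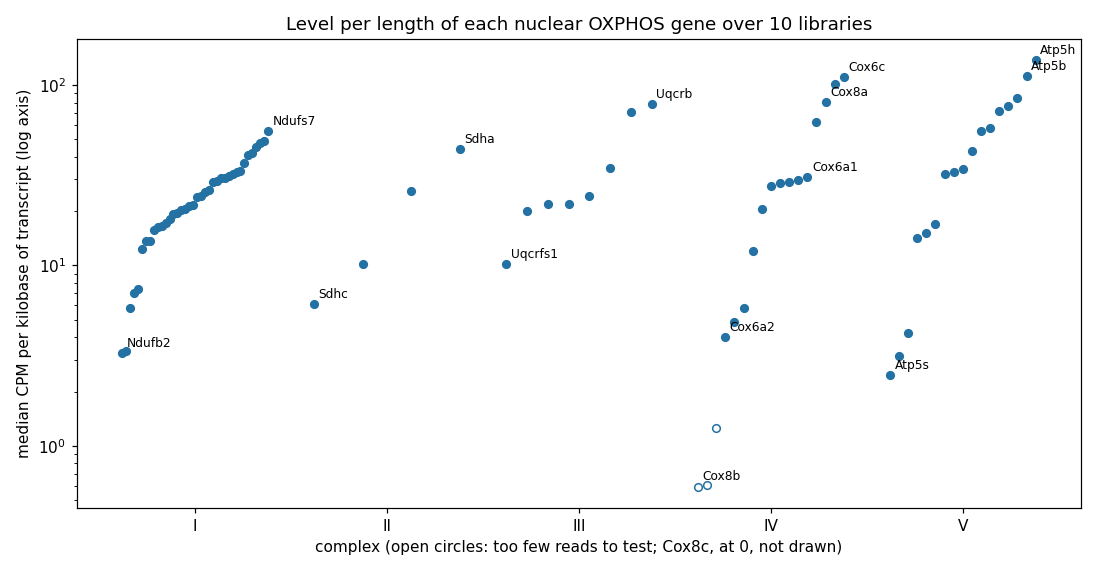
Median CPM per kilobase of transcript over 10 libraries (log axis) for each nuclear OXPHOS gene, sorted within complexes I to V, with open circles for genes with too few reads to test and Cox8c, at 0, not drawn. Atp5h, Atp5b and Cox6c lie at 137, 112 and 111, while Cox6a2 lies at 4.02, below its ubiquitous partner Cox6a1 at 31.0.

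The promoters of these genes are shown for the factors known to drive them together, NRF1 and the ETS factor GABP. RefSeq promoter windows (GRCm38.p6, 250 bases before to 50 after a start) matched 70 of the 85 genes. On either strand, 10 of 70 windows (14.3%) held the letters GCGCATGC of an NRF1 motif, against 4.86% of 13446 genes tested with a window. An ETS motif, CCGGAAG, was found in 16 (22.9%, against 15.7%) and a YY1 motif, AAGATGGC, in 11 (15.7%, against 4.28%). Sdhb, Uqcr11, Cox6a1, Atp5k and Atp5l held both the NRF1 and the ETS letters. No motif contains another, the NRF1 letters can overlap their own reverse complement, and a match is a description, not a bound site. The 250 bases upstream of 3 members are given on their own strand, with matches in capitals. Cox6a1 (chr5:115348959-115349208, minus strand) is shown as the partner of Cox6a2, Uqcrh (chr4:116075071-116075320, minus strand) as a member with a low p-value in the tests that follow, and Sdhb (chr4:140961021-140961270, plus strand) as a subunit of complex II.
Cox6a1: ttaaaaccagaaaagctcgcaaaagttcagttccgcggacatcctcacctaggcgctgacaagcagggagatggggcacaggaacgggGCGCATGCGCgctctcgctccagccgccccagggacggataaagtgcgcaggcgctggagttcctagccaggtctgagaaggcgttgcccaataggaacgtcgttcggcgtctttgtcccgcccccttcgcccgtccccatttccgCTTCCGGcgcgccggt
Uqcrh: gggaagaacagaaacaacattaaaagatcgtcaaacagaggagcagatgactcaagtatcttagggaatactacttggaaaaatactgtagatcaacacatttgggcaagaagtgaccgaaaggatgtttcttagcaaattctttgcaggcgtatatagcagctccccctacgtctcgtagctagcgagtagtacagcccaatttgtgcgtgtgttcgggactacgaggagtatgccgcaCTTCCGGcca
Sdhb: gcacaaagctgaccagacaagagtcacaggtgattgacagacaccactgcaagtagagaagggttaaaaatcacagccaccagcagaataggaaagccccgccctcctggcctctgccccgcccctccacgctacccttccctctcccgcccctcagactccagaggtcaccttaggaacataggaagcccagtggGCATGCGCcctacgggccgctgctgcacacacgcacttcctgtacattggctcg
The Cox6a1 stretch held overlapping NRF1 matches and an ETS match near the start, the Uqcrh stretch an ETS match near the start, and the Sdhb stretch an NRF1 match. The promoter of Cox6a2 was not in the table.

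The members moved largely as a block from library to library, and the WT libraries spread the most. The mean over 81 genes was 4.12, 4.33 and 4.87 log2 CPM in WT replicates 1, 2 and 3, a mean of 4.44 ± 0.386 (SD, n = 3). The APP/PS1 libraries had 4.42, 4.45, 4.63 and 4.70 (4.55 ± 0.138, n = 4) and the N-AS libraries 4.25, 4.36 and 4.50 (4.37 ± 0.123, n = 3). Thus both transgenic groups lay within the range of the 3 WT libraries. WT replicate 3 was the highest of all 10 libraries for 52 of 81 members (64.2%, against 20.7% of all genes tested), and WT replicate 1 was the lowest for 51 (63.0%, against 15.8%). For 71 members (87.7%, against 53.1% of all genes) the APP/PS1 mean and the N-AS mean both fell inside the WT range.

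**Figure D2:**
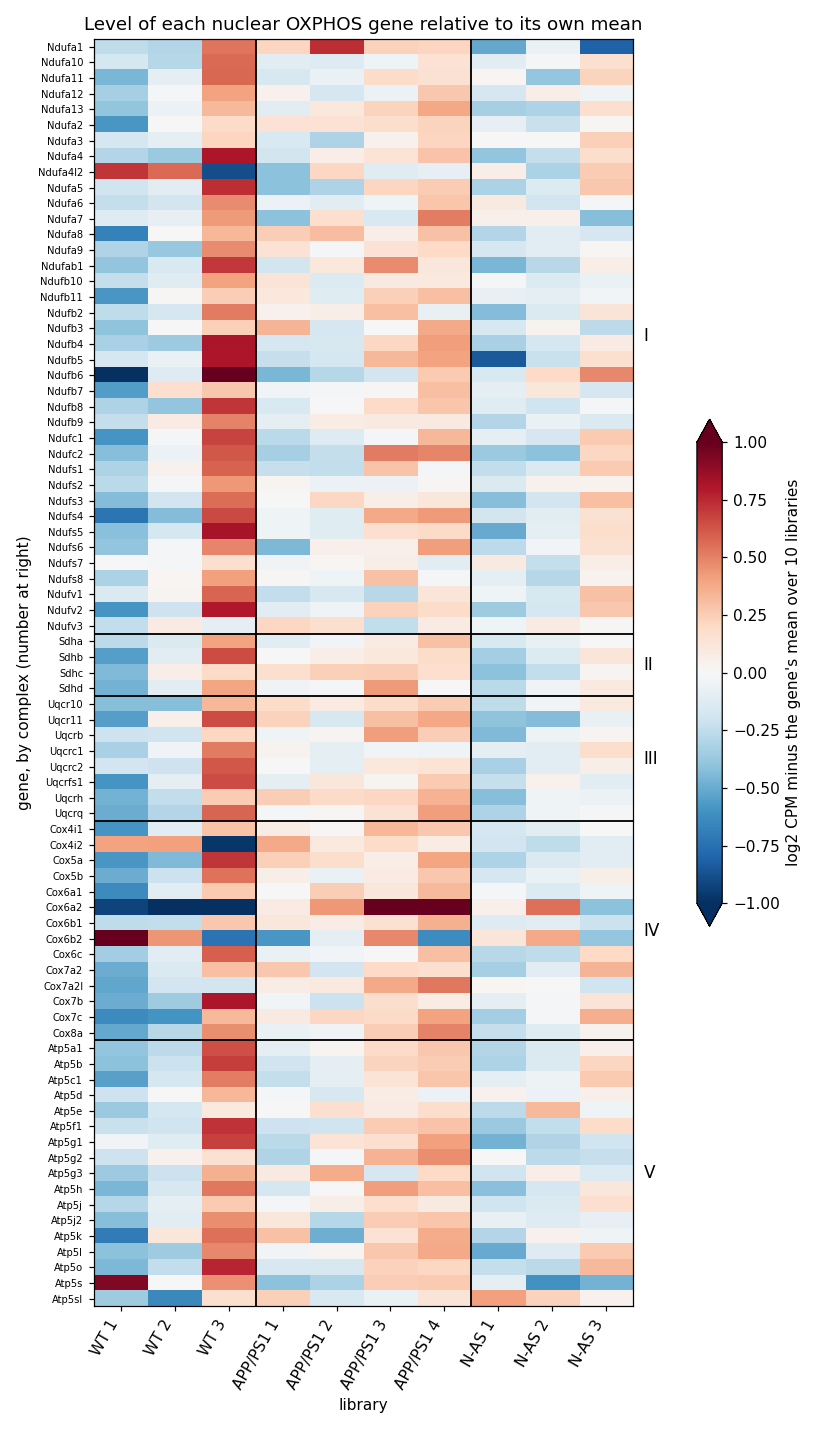
Log2 CPM of each of the 81 tested genes minus its own mean over 10 libraries, in colour from -1 to 1, with rows grouped by complex and columns by group. Most rows are highest in WT replicate 3 and lowest in WT replicate 1, while Cox6a2 is low in all 3 WT libraries and Ndufa4l2, Cox4i2 and Cox6b2 are low in WT replicate 3.

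WT replicate 3 also stood apart in its neuronal and endothelial markers. Its neuronal marker sum was 6181 CPM, against 3084 to 4138 in the other libraries, and its endothelial sum was 567, against 1216 to 1792. The oligodendrocyte sum was 2472 there and 7024 and 7156 in the other WT libraries. The part of these cells in the OXPHOS values was not tested. As a share of all counts, the 85 genes took 0.202% in WT replicate 1 and 0.424% in WT replicate 3, with the other libraries between them. Over all libraries, complex I held 33.8 to 36.2% of the members' counts, complex II 6.59 to 7.30% and complex III 8.10 to 9.26%. Complex IV held 13.2 to 15.3% and complex V 33.8 to 36.9%. The share of complex I was 35.2 to 36.2% in WT and 33.8 to 34.6% in APP/PS1, without overlap. That of complex IV was 13.2 to 13.8% in WT and 14.6 to 15.3% in APP/PS1, also without overlap. After N-AS these shares were 34.9 to 35.8% and 13.8 to 14.7%. The shares of complexes II, III and V overlapped between WT and APP/PS1, and no share was tested.

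**Figure D3:**
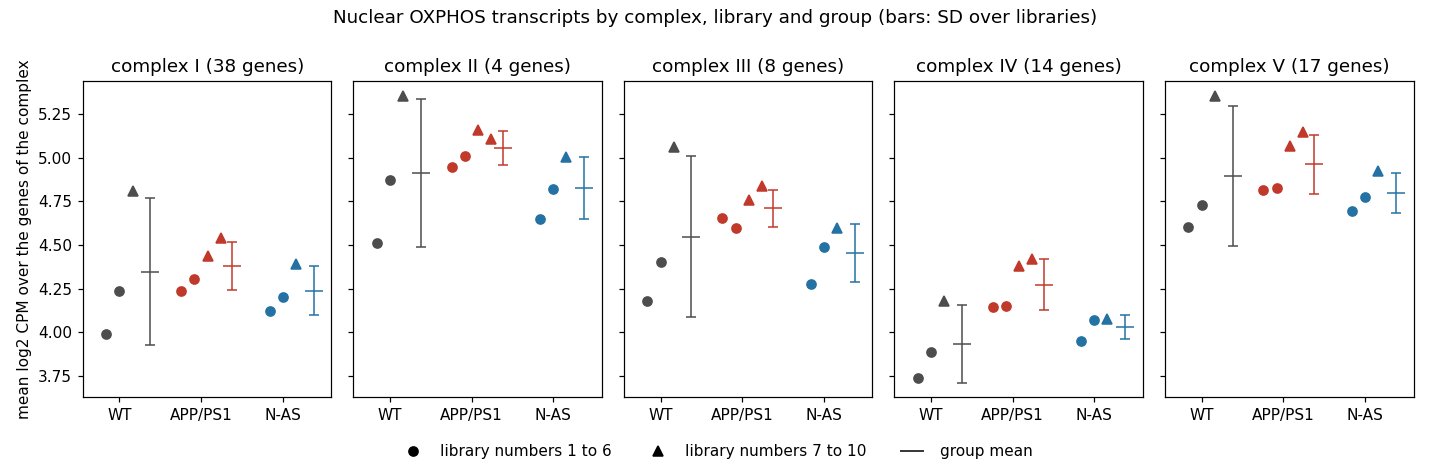
Mean log2 CPM over the genes of each complex in each library, by group, with circles for library numbers 1 to 6, triangles for 7 to 10, and the group mean with its SD beside them. WT spans the widest range in every complex, from 3.99 to 4.81 in complex I. Complex IV is where the APP/PS1 libraries (4.15 to 4.42) lie highest against WT (3.74 to 4.18), and its mean includes Cox6a2 (log2 fold change 2.25). In numbers 7 to 10 the complex IV mean differs by 0.22, but the median by -0.04, with 5 of 14 genes above 0.

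Between APP/PS1 and WT libraries, Cox6a2 rose and no other member passed the test. Cox6a2 encodes the heart and muscle form of subunit 6A of complex IV (chr7:128205435-128206387, minus strand). Its level was 1.31, 1.24 and 0.771 CPM in WT replicates 1 to 3 and 2.76, 3.55, 6.97 and 7.24 CPM in the APP/PS1 libraries, from 11 to 20 and 32 to 152 reads. All 4 APP/PS1 libraries lay above all 3 WT libraries. The log2 fold change was 2.25 ± 0.44 (SE, adjusted p = 0.0193, edgeR quasi-likelihood test with Benjamini-Hochberg adjustment over 18727 genes). This 1 call compares with 3.47% of all genes called in this comparison, or 649 genes. Because Xist also separates WT from APP/PS1, the part of sex in the call for Cox6a2 cannot be told from that of genotype. Some cell type markers moved in the same comparison, with 11 of 14 microglial markers called higher (median log2 fold change 1.67) and 3 of 10 oligodendrocyte markers called lower (median -1.34). Of 8 astrocyte markers, 2 were called higher, Gfap by 5.65 ± 0.55 (adjusted p = 0.000545, edgeR) and S100b by 1.21 ± 0.24 (0.0220, edgeR). The median of the astrocyte list was -0.05, with 4 of 8 below 0. The part of these markers' cells in the OXPHOS values was not tested.

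The call for Cox6a2 depended on the setting. It was kept with 3 other scalings, 2 other filters, the library set as a covariate (adjusted p = 0.0260), DESeq2 (7.42e-05), limma (0.0479) and a fit of only the groups compared (0.0424), and without APP/PS1 replicate 1, APP/PS1 replicate 2 or WT replicate 3. It was lost with the replicate number as a block (log2 fold change 2.03, adjusted p = 0.0890), in library numbers 1 to 6 alone (1.28, 0.119), and without WT replicate 1 (2.37, 0.0540), WT replicate 2 (2.38, 0.0586), APP/PS1 replicate 3 (2.07, 0.0594) or APP/PS1 replicate 4 (2.04, 0.0628, all by edgeR). Within library numbers 7 to 10, with a single WT library and no test, the difference of mean log2 CPM was 3.00. Itgad, a myeloid integrin, overlaps Cox6a2 on the opposite strand, and the sources used here do not state whether counting used strand. Itgad had 4.28, 0.310 and 0.530 CPM in WT and 3.72 to 6.67 CPM in APP/PS1 libraries (log2 fold change 1.60 ± 0.73, adjusted p = 0.293, edgeR). Its level in WT replicate 1 was therefore within the APP/PS1 range, where Cox6a2 was not, and the part of its reads in the Cox6a2 counts was not tested.

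Cox7a2l, a factor that links complexes III and IV into supercomplexes, was the next member by p-value. It had 21.8, 27.3 and 27.5 CPM in WT and 33.0, 33.4, 40.6 and 45.2 CPM in APP/PS1, so the groups did not overlap. Its log2 fold change was 0.57 ± 0.15 with an adjusted p of 0.0677 by edgeR, past the threshold only with DESeq2 (adjusted p = 0.0178) among the alternatives run. Cox6a2 and Cox7a2l were the 2 members whose APP/PS1 libraries all lay higher than WT, against 8.15% of all genes, and 0 members lay lower throughout, against 6.73%. They were also the 2 members with an unadjusted p under 0.05, against 17.2% of all genes.

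The other members gave no difference past the threshold in either direction. Fitted log2 fold changes were above 0 for 45 members and below 0 for 36 (58.8% of all genes were below 0), with a median of 0.03, against -0.07 over all genes. By complex, the median was -0.03 in complex I, 0.08 in complex II, 0.10 in complex III, 0.20 in complex IV and 0.03 in complex V. For 75 of 81 members the 95% confidence interval lay within 1 log2 unit of 0, so changes of more than 2-fold were outside the interval for most of them, but only 13 had an interval within 0.5.

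Uqcrh, the hinge protein of complex III, had 26.4, 30.8 and 43.7 CPM in WT and 41.8 to 46.6 CPM in APP/PS1 (log2 fold change 0.37 ± 0.17, adjusted p = 0.311, edgeR). WT replicate 3 alone reached the APP/PS1 values. On the lower side, the smallest p-values belonged to Atp5s (-0.52 ± 0.29, adjusted p = 0.393), Ndufv1 of the NADH-binding head (-0.33 ± 0.19, 0.429) and Ndufb6 (-0.53 ± 0.44, 0.599, all edgeR). Ndufb6 ran from 2.50 to 12.7 CPM within WT alone.

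**Figure D4:**
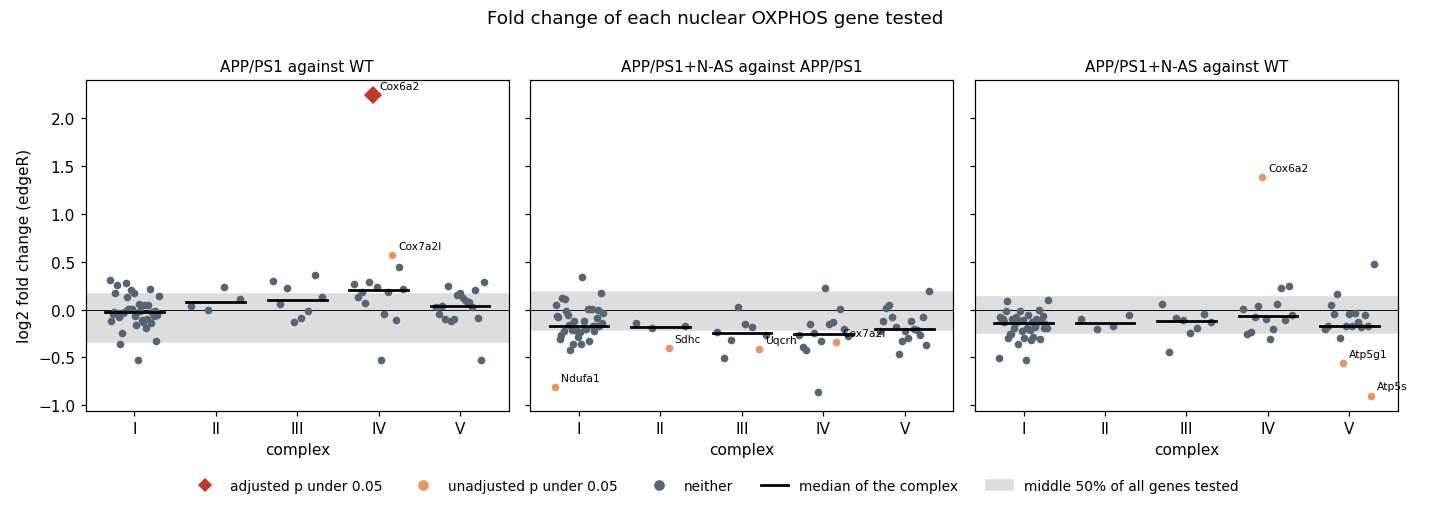
Log2 fold change of each of the 81 tested genes by complex in 3 comparisons, with the median of each complex as a black line and the middle 50% of all genes tested in grey. Cox6a2 is the single gene past the adjusted threshold, in APP/PS1 against WT, and 67 of 81 genes lie below 0 in APP/PS1+N-AS against APP/PS1.

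This comparison rested on WT replicate 3. Without it, 6 members were called higher in APP/PS1 by edgeR, namely Cox5a, Cox6a2, Cox7c, Ndufa9, Uqcr10 and Uqcrh, the median of the members was 0.38, and 29 had an unadjusted p under 0.05 with a higher level, where 2.87% and 10.7% of all 19112 genes did. Cox5a then had a log2 fold change of 0.75 (adjusted p = 0.0318) and Uqcrh 0.61 (0.0391). Without WT replicate 1 the median turned to -0.12 and no member was called. Library numbers 1 to 6 alone gave a median of 0.17 with 17 of 81 members below 0 (56.4% of all genes), while the median difference of mean log2 CPM within numbers 7 to 10 was -0.30. The direction of the members as a whole thus differed between both library sets, and the numbers 7 to 10 hold a single WT library. In complex IV the medians were 0.32 and -0.04 in the 2 sets, with 5 of 14 genes above 0 in the second.

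The comparison of APP/PS1+N-AS with APP/PS1 gave no member past the adjusted threshold, and the fitted level of most members was slightly lower after N-AS. The lowest adjusted p of a member was 0.509 (edgeR), and 0 of all 18727 genes were called (0%, with 1653 at an unadjusted p under 0.05 and 76 called by DESeq2). Log2 fold changes were below 0 for 67 of 81 members (51.4% of all genes were below 0), with a median of -0.20 against -0.01 over all genes. By complex, 30 of 38 genes were below 0 in complex I, 4 of 4 in complex II, 7 of 8 in complex III, 12 of 14 in complex IV and 14 of 17 in complex V. The medians were -0.17, -0.18, -0.25, -0.26 and -0.21 in the same order.

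Deviations of same-numbered libraries correlated weakly in this comparison, which does not establish a pairing. The replicate block gave a median of -0.14 with 63 members below 0 (50.7% of all genes) and 0 called. The median stayed below 0 under each alternative run, between -0.26 and -0.11. It was smaller in size within the library sets, at -0.12 in numbers 1 to 6 and -0.15 in numbers 7 to 10. With the library set as a covariate it was -0.12. In numbers 7 to 10 the N-AS library had 29 Xist reads and the APP/PS1 libraries 8477 and 11188. Sex and N-AS thus cannot be told apart within that set. For 72 members the 95% interval of the difference lay within 1 log2 unit of 0. Of the 14 microglial markers, 0 were called and 10 were lower at an unadjusted p under 0.05 (median log2 fold change -0.68), and their part in these values was not tested.

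For 11 members all N-AS libraries lay below all APP/PS1 libraries, and for 0 they lay above (6.46% and 6.26% of all genes). They were Ndufa1, Ndufa2 and Ndufa8 of complex I, Sdhc of complex II, Uqcrh of complex III, and Cox4i1, Cox4i2, Cox5a, Cox6a1, Cox6b1 and Cox7a2l of complex IV. Ndufa2 and Ndufa8, like Cox7c, Ndufa9 and Uqcr10 above, are named after their values were seen. The 4 members with an unadjusted p under 0.05 were all lower after N-AS, against 8.83% of all genes in either direction.

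Ndufa1, a small membrane subunit of complex I encoded on the X chromosome, had 6.30, 9.09, 6.35 and 6.28 CPM in APP/PS1 and 3.76, 5.14 and 3.03 CPM in N-AS libraries (log2 fold change -0.81 ± 0.28, adjusted p = 0.509, edgeR). Its WT libraries had 4.52, 4.40 and 7.91 CPM and overlapped both groups. Sdhc, a membrane anchor of succinate dehydrogenase, had 20.1, 21.2, 21.3 and 20.2 CPM in APP/PS1 and 13.5, 15.2 and 18.3 CPM after N-AS (-0.40 ± 0.17, adjusted p = 0.531, edgeR). The APP/PS1 libraries of Sdhc lay close together, and the N-AS libraries spread over a wider range below them.

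Uqcrh had 43.5, 41.8, 42.2 and 46.6 CPM in APP/PS1 and 27.2, 35.5 and 35.2 CPM after N-AS (-0.42 ± 0.17, adjusted p = 0.533, edgeR). Cox7a2l had 31.6, 31.1 and 27.2 CPM after N-AS (-0.34 ± 0.15, adjusted p = 0.547, edgeR), a mean of 30.0 CPM between 25.5 CPM for WT and 38.0 CPM for APP/PS1. Cox6a2 had 2.70, 3.87 and 1.92 CPM after N-AS (-0.86 ± 0.40, adjusted p = 0.573, edgeR), which overlapped the APP/PS1 libraries. On the higher side the smallest p-values were those of Atp5sl (0.19 ± 0.20, adjusted p = 0.823), Ndufv1 (0.17 ± 0.19, 0.833) and Ndufb6 (0.34 ± 0.44, 0.862, edgeR).

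**Figure D5:**
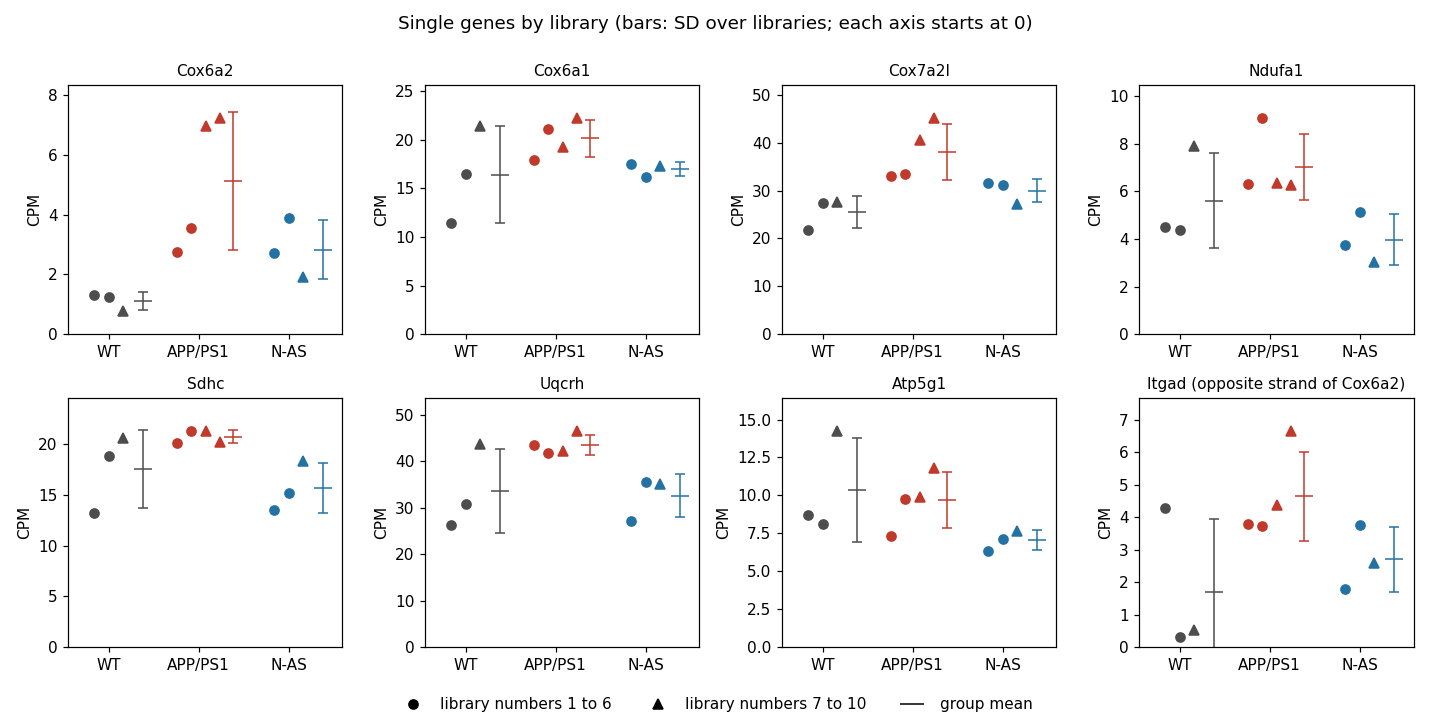
CPM of 7 nuclear OXPHOS genes and of Itgad in each library by group, with circles for library numbers 1 to 6, triangles for 7 to 10, and the group mean with its SD, whose lower end is cut at 0 for Itgad in WT. Cox6a2 lies at 0.771 to 1.31 in WT and 2.76 to 7.24 in APP/PS1, and the N-AS libraries of Sdhc, Uqcrh, Ndufa1 and Cox7a2l all lie below their APP/PS1 libraries.

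Against WT, libraries from N-AS-injected APP/PS1 mice gave 0 members past the adjusted threshold by edgeR, against 0.187% of all genes, with a lowest adjusted p of 0.508. At an unadjusted p under 0.05, Cox6a2 was higher (log2 fold change 1.39 ± 0.45), and Atp5s (-0.90 ± 0.31) and Atp5g1 (-0.56 ± 0.24) were lower, against 6.73% of all genes. These 3 were also the members without overlap between groups, 1 higher and 2 lower (4.90% and 3.91% of all genes). Atp5g1 encodes 1 of 3 precursors of the ATP synthase c ring and had 8.68, 8.11 and 14.3 CPM in WT and 6.33, 7.16 and 7.68 CPM after N-AS. Atp5s had 7.61, 3.96 and 5.45 CPM in WT and 3.69, 2.54 and 2.81 CPM after N-AS.

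Of the members, 69 of 81 were below 0 in this comparison (56.2% of all genes), with a median of -0.13 against -0.04 over all genes. By complex the medians were -0.14, -0.14, -0.12, -0.07 and -0.17 for complexes I to V. The direction again turned on WT replicate 3, since without it the median was 0.16 with 11 members below 0 (51.9% of all genes), and without WT replicate 1 it was -0.29. It was 0.052 in library numbers 1 to 6 and -0.41 in numbers 7 to 10. The next members by p-value were Atp5sl (0.48 ± 0.22, adjusted p = 0.734) and Cox7a2l (0.23 ± 0.16, 0.847) on the higher side and Ndufb9 (-0.31 ± 0.17, 0.779, edgeR) on the lower side.

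Paired forms of a subunit were compared as shares of their summed level per length. Cox6a2, the muscle form, made up 8.78, 5.96 and 2.94% of Cox6a1 and Cox6a2 in WT (5.89 ± 2.92%, SD, n = 3), 11.5, 12.4, 23.3 and 21.5% in APP/PS1 (17.2 ± 6.08%, n = 4) and 11.5, 16.8 and 8.53% after N-AS (12.3 ± 4.18%, n = 3). Every APP/PS1 library lay above every WT library. Cox6a1, the ubiquitous form, had 11.4, 16.4 and 21.4 CPM in WT and 17.9 to 22.2 CPM in APP/PS1 (log2 fold change 0.28 ± 0.19, adjusted p = 0.496, edgeR). Cox4i2, the lung form of subunit 4, made up 9.83, 7.30 and 2.15% of its pair in the WT libraries, 4.53 to 6.33% in APP/PS1 and 4.63 to 5.05% after N-AS. Ndufa4l2, a relative of the complex IV subunit Ndufa4 known to respond to hypoxia, made up 20.7, 19.9 and 3.65% of its pair in the WT libraries, 8.92 to 12.3% in APP/PS1 and 10.7 to 15.0% after N-AS.

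Cox4i2, Ndufa4l2, Cox6b2 (the testis form of subunit 6B) and Cox6a2 were the 4 members lowest in WT replicate 3, against the direction of most members within WT. Levels of the first 3 in WT replicates 1 to 3 were 5.35, 5.39 and 1.98 CPM, 5.23, 4.70 and 1.64 CPM, and 5.47, 3.65 and 1.54 CPM. In the same libraries the endothelial marker sum was 1418, 1792 and 567 CPM and the pericyte sum 317, 368 and 217 CPM, and their part in these levels was not tested. Of these, Cox4i2, Ndufa4l2 and Cox6b2 passed no test in a comparison, with adjusted p-values of 0.606 to 0.875 for APP/PS1 against WT by edgeR. Cox7a1 and Cox8b, the muscle forms of subunits 7A and 8, stayed at 0 to 13 reads per library, so that their shares of up to 8.28% and 2.26% carry little information.

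The c subunit of the ATP synthase is made from 3 genes with the same mature protein. Atp5g3 gave 55.0 to 69.3% of their summed level per length, Atp5g2 25.7 to 38.5% and Atp5g1 4.73 to 7.72% over all libraries. The size of these shares is uncertain, since Atp5g1 was divided by 2675.5 bases, Atp5g2 by 586 and Atp5g3 by 718.5. Without length, the median levels were 8.39 CPM for Atp5g1, 9.97 for Atp5g2 and 24.6 for Atp5g3. Atp5g1 made up 6.96 ± 0.894% in WT (n = 3), 5.90 ± 0.712% in APP/PS1 (n = 4) and 5.19 ± 0.575% after N-AS (n = 3). The N-AS libraries (4.73 to 5.83%) lay below the WT libraries (5.97 to 7.72%), and this share was given no test.

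For the abundant subunits Atp5b, Atp5a1 and Sdha, both the lowest and the highest library were WT. Atp5b levels were 176 to 377 CPM (WT), 203 to 278 CPM (APP/PS1) and 188 to 272 CPM (N-AS), and those of its alpha partner Atp5a1 were 162 to 334, 199 to 258 and 174 to 221 CPM. Sdha levels were 111 to 175 CPM (WT), 123 to 163 CPM (APP/PS1) and 120 to 132 CPM (N-AS). Ndufs7 varied little, at 47.5 to 54.3 CPM (WT), 44.9 to 50.1 CPM (APP/PS1) and 40.9 to 51.3 CPM (N-AS). Its log2 fold change was -0.07 ± 0.12 for APP/PS1 against WT, with a 95% interval of -0.33 to 0.19. Cox4i1, the ubiquitous form of subunit 4, had 50.8, 70.8 and 93.1 CPM in WT, with 77.0 to 96.2 CPM for APP/PS1 and 67.9 to 76.8 CPM after N-AS.

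The members on the X chromosome, Ndufa1, Ndufb11 and Cox7b, were looked at beside Xist. Ndufb11 had 9.63, 14.5 and 17.2 CPM in WT, with 13.3 to 17.9 CPM for APP/PS1 and 13.5 to 14.2 CPM after N-AS. Cox7b had 21.3, 23.5 and 52.8 CPM in WT, with 25.9 to 34.0 CPM for APP/PS1 and 28.3 to 33.0 CPM after N-AS. Neither separated libraries with high Xist from those with low Xist. Ndufa1 was lowest in N-AS replicate 3, the N-AS library with 29 Xist reads, at 3.03 CPM, but WT replicate 3, with 33 Xist reads, had 7.91 CPM. The part of sex-linked expression in these values was not tested.

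Genes that build, supply or regulate the chain were counted in the same fits. In each of 3 comparisons 0 of 46 assembly factors, 0 of 21 electron carriers and regulators, 0 of 14 tricarboxylic acid cycle enzymes and 0 of 77 mitochondrial ribosomal proteins were called by edgeR, where 3.47%, 0% and 0.187% of all genes were called. At an unadjusted p under 0.05, where 17.2%, 8.83% and 6.73% of all genes passed in the 3 comparisons, APP/PS1 against WT gave 0 higher and 1 lower assembly factor, 1 higher and 0 lower carriers or regulators, 0 cycle enzymes, and 2 higher and 2 lower ribosomal proteins. N-AS against APP/PS1 gave 0 assembly factors, 1 higher regulator or carrier, 0 cycle enzymes, and 1 higher and 4 lower ribosomal proteins. N-AS against WT gave 2 lower assembly factors and 2 lower ribosomal proteins.

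The median log2 fold changes of these lists for APP/PS1 against WT were -0.12, 0.00, -0.05 and 0.00, and for N-AS against APP/PS1 0.06, -0.05, -0.05 and -0.08, in the order assembly factors, carriers and regulators, cycle enzymes and ribosome. The coactivator gene Ppargc1a changed by 0.04 ± 0.23 and -0.09 ± 0.23 on the log2 scale in these 2 comparisons, Nrf1 by -0.06 ± 0.13 and 0.11 ± 0.13, Gabpa by 0.14 ± 0.13 and -0.14 ± 0.13, Tfam, the mitochondrial transcription factor, by 0.02 ± 0.17 and 0.01 ± 0.17, and Esrra by -0.05 ± 0.16 and -0.03 ± 0.16 (SE, adjusted p 0.651 to 0.997, edgeR). Cyc1, the cytochrome c1 of complex III that the symbol rule does not reach, had 0.04 ± 0.17 and 0.14 ± 0.17, Cycs, cytochrome c, -0.06 ± 0.24 and -0.17 ± 0.24, and Atpif1, the inhibitor of the ATP synthase, -0.09 ± 0.28 and -0.23 ± 0.28.

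Among the 85 genes, 30 overlap an annotated gene on the opposite strand and 11 on the same strand in GENCODE M21, and 5 have pseudogenes annotated under their own name, which includes Uqcrh with 2. The counts of these genes may hold reads of the other gene.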

How the data were processed

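The authors removed ribosomal RNA with a depletion kit, made SMARTer stranded libraries and aligned paired reads with TopHat. The submitters' processing notes name edgeR and mm10, and versions, the counting annotation and its strand setting are not given in the sources used here. The deposited files hold raw read counts per gene symbol for 10 libraries, each a pool of 2 mice, and lines that share a symbol were summed. Groups and replicate numbers follow the sample labels.

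The members, companion lists and markers were chosen with earlier results of these data known. Members named in the text follow a fixed list of paired forms and core subunits, the lowest p-values per comparison and direction, the extremes of level per length in each complex, APP/PS1 libraries past Dixon's value, and X-linked members. Genes outside it are marked as such, except Uqcr11, Atp5k and Atp5l, named for promoter letters, and Cox7b2, named as not tested. Genes were filtered with filterByExpr, scaled by TMM and tested with edgeR 4.0.16 in R 4.3.3 (glmQLFit and glmQLFTest, 1 model of 3 groups, no covariate), with Benjamini-Hochberg adjustment over 18727 genes and a threshold of 0.05. CPM used the TMM factors, log2 CPM a prior count of 2, and the SE is the log2 fold change divided by the root of F. The common dispersion was 0.0752, and fold changes of genes with few reads are imprecise. Total counts were 8805804 to 19432075, and counting error alone understates the error of PCR-amplified reads without molecular identifiers. P-values set a group difference against a spread between libraries of pooled mice, estimated from all 3 groups together.

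Deviations of same-numbered libraries from their group means correlated at 0.278, 0.142 and 0.309 for APP/PS1+N-AS and APP/PS1. The values were -0.136, 0.348 and 0.240 for APP/PS1+N-AS and WT. A possible pairing of the first comes from the data, since the labels only number the libraries. Differently numbered libraries were not compared. Replicate numbers also follow the library set, so a shared set and a pairing cannot be told apart. Positions and lengths come from GENCODE M21 (GRCm38, the mm10 build), promoters from RefSeq. Alternatives were DESeq2 1.42.0 and its size factors, quantile-normalized voom in limma 3.58.1, unscaled total counts, upper-quartile scaling, a prior count of 0.5, 2 other filters, the block, the library set, only the groups compared, an unadjusted threshold and each library left out. Library numbers 1 to 6 alone and 7 to 10 alone were added after seeing the data. The edgeR script was tested on simulated data first. Mitochondrial DNA genes were not analysed here.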

Additional observations from a re-analysis of the deposited data

Results flagged for a closer look

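In the APP/PS1 group, 7 of 87 items tested (81 genes and means over complexes) had 1 library far from the other 3, by a ratio of gap to range above Dixon's 95% critical value, where chance gives about 1 in 20. The ratio was 0.97 for Ndufa1, with 9.09 CPM in replicate 2 against 6.28 to 6.35. It was 0.943 for Ndufb9 (29.5 CPM in replicate 1 against 33.3 to 33.5) and 0.867 for Ndufb10 (32.7 CPM in replicate 2 against 38.3 to 39.2), both low. It was 0.919 for Sdhd (17.1 CPM in replicate 3 against 12.4 to 12.8) and 0.835 for Ndufs8 (21.7 CPM in replicate 3 against 17.2 to 17.9). In replicate 4, the ratio was 0.881 for Ndufb7 (23.7 CPM against 18.8 to 19.3) and 0.841 for Cox6c (85.6 CPM against 66.5 to 69.3). The 7 items fall on all 4 APP/PS1 libraries.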

How the results depend on the processing

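For APP/PS1 against WT, the 1 called member became 2 at an unadjusted p under 0.05 and with DESeq2, and 0 with the replicate block and in library numbers 1 to 6. Over all genes, 649 calls became 3221 at an unadjusted p, 326 with the block, 1055 with the library set as a covariate, 1321 with DESeq2 and 410 with only the groups compared. The members' median of 0.03 became 0.17 in library numbers 1 to 6 and -0.30 in numbers 7 to 10. Leaving out 1 library gave 0 to 6 called members, 299 to 923 called genes and medians of -0.12 (without WT replicate 1) to 0.38 (without WT replicate 3). Correlations between same-numbered libraries were -0.485, 0.441 and -0.01 here, which neither establish nor exclude a pairing.

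For N-AS against APP/PS1, 0 members were called except 4 at an unadjusted p, and the block changed no call. Over all genes, 0 calls became 1653 at an unadjusted p, 11 in library numbers 1 to 6, 76 with DESeq2, and 0 to 1 with 1 library left out.

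For N-AS against WT, 0 members were called except 3 at an unadjusted p. Over all genes, 35 calls became 1261 at an unadjusted p, 5 with the block, 64 with the library set, 437 in library numbers 1 to 6, 187 with DESeq2, 20 with limma, 2 with only the groups compared, and 1 (without WT replicate 2) to 116 (without N-AS replicate 3). The median of -0.13 became 0.052 in library numbers 1 to 6, -0.41 in numbers 7 to 10, and -0.29 to 0.16 with 1 library left out.

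Of 2279 fold changes of named members under these alternatives, 210 had another sign, none of them with a call on either side, and 9 crossed the threshold, all described above. The other scalings and filters left each count of members as it was. Members with few reads, such as Cox6a2 with 11 to 152, limit what depth can show. The causes were not tested.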
